A study of Mus musculus with 16 samples.

Results

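The genes described here were 7 mouse Serpinb genes (Serpinb1a, Serpinb6a, Serpinb6b, Serpinb8, Serpinb9, Serpinb9b and Serpinb9g), found by symbol among the 41325 genes of the count tables. They were selected on their read counts across the 4 sample groups, so their levels and changes are given as a description, without p-values. Where calls of the fit are counted for them, nothing is read from these counts. The cells were immortalized preadipocytes, fat cell precursors, of wild-type C57Bl6/J mice. The groups were untreated cells at day 0, cells given the cytokine interleukin-13 (IL-13) for 16 h and taken at day 0, untreated cells at day 6 of adipocyte differentiation, and IL-13 pre-treated cells at day 6, with 4 RNA-seq libraries in each. All groups shared this line and genotype, and as an immortalized line in culture it stands for fat cell precursors without the other cells of fat tissue. Whether replicate libraries were grown as separate cultures is not stated in the labels, and their spread may therefore be technical.

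Serpins inhibit proteases by offering a reactive loop as bait: the protease cleaves the loop and is trapped in a covalent complex. Those of clade B, named Serpinb, lack a classical signal peptide and mostly stay inside the cell, where they are best known for guarding leukocytes against their own granule proteases. IL-13 signals through the IL-4 receptor alpha chain to the transcription factor STAT6, which binds paired TTC and GAA sequences separated by a short spacer.

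In the mouse genome build GRCm38 (mm10), Serpinb8 lies on chromosome 1 (107590006 to 107610484, plus strand) and the other 6 members lie on chromosome 13 within 1161 kb. Along chromosome 13 the order is Serpinb1a (32842092 to 32851185, minus strand), Serpinb6b (32965209 to 32979067, plus), Serpinb9 (33003250 to 33017957, plus), Serpinb9b (33027416 to 33041884, plus), Serpinb9g (33484790 to 33496004, plus) and Serpinb6a (33917918 to 34002794, minus). Only 9.46 kb separate Serpinb9 from Serpinb9b, while 443 kb separate Serpinb9b from Serpinb9g. The count tables held 27 clade B genes, 15 on chromosome 13 and 12 on chromosome 1, and 9 of the 20 that are not members had no count in any library.

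The RefSeq table of promoter windows, in build GRCm38.p6, matched 6 of the 7 members and gave 7 windows, since Serpinb6a has 2 start sites. Of all pairs of these windows, those of Serpinb9 and Serpinb9b were the most alike. Of the 250 bases upstream of their RefSeq starts, 154 were identical in a global alignment. The other pairs had 113 to 138 identical bases, the 138 for Serpinb8 and Serpinb9g on different chromosomes. The Serpinb9 window lies inside the span of the counted gene given above, so it is upstream of the RefSeq start only. The windows of Serpinb9 and Serpinb9b are shown because these neighbouring genes were both higher after IL-13 and share a start-proximal stretch. Capitals mark the 3 runs of at least 8 identical aligned bases, 33 bases in all, and the window of Serpinb9 is chr13:33004291-33004540 on the plus strand and that of Serpinb9b chr13:33027164-33027413 on the plus strand.
Serpinb9: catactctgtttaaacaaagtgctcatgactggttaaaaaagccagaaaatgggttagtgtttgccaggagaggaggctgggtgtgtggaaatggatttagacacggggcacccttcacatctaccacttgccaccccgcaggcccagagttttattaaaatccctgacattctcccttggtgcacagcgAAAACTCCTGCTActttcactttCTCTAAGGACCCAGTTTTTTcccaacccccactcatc
Serpinb9b: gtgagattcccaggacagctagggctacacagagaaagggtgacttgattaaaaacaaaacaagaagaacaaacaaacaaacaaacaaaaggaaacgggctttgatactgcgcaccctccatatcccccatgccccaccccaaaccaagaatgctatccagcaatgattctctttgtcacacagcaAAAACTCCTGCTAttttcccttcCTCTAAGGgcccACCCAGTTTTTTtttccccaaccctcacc

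All 3 runs sit in the part of the window next to the start site. The longest, 13 bases, was found in 3 of the 32851 windows of 300 bases in the table, counting both strands, and these belonged to Serpinb9, Serpinb9b and Txk. STAT6 motifs were sought as TTC and GAA with any 4 bases between them, which 6.95% of all windows held, and with any 3 bases between them, which 8.30% held. Each motif reads the same on both strands. Among the 6 members with a window, Serpinb6a was the member with a match, at its upstream start site. There TTCCGGGAA stood 77 bases before the start and again at base 21 after it, and TTCTGAGGAA stood at base 36 after it. The upstream 250 bases, chr13:34002795-34003044 on the minus strand, are shown with the match in capitals.
Serpinb6a: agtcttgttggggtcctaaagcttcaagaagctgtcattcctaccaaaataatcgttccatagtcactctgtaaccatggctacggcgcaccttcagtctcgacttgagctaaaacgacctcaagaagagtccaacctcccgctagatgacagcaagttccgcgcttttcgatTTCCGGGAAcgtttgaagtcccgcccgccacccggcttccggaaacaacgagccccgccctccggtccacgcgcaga

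The windows of the other 5 members and the second Serpinb6a window did not hold these letters. A match is a description of the sequence, and binding was not measured.

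Library totals ran from 15253031 to 18112087 counted reads, and no pair of replicate libraries agreed within sampling noise. The labelled cell types were checked with marker lists. The summed level of 10 adipocyte genes was 526 CPM (reads scaled to library size) in untreated cells at day 0 and 24659 CPM at day 6, and that of 10 preadipocyte genes was 1320 and 476 CPM. Leukocyte RNA was sparse: 10 T and NK cell markers summed to 0.0800 to 0.350 CPM in the 4 groups. The 10 myeloid markers summed to 5.41 CPM in untreated and 7.33 CPM in IL-13 libraries at day 0. These sums ran from 4.68 to 6.25 and from 6.53 to 8.67 CPM, without overlap. Of the 10 markers, 8 had a read in the untreated and 7 in the IL-13 libraries, with Adgre1 and S100a9 at 0 in both. The 7 mast cell markers summed to 0.230 and 0.245 CPM at day 0, and at day 6 nearly all of their sum came from Kit. A list of 14 nuclear-retained and intron-rich RNAs moved with IL-13 on both days, from 290.1 to 682 CPM in untreated against 180 to 222 CPM in IL-13 libraries at day 0, and from 688 to 1374 against 262 to 492 CPM at day 6. The groups did not overlap in this sum on either day, and its part in the results below was not tested.

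Serpinb1a was almost silent in untreated preadipocytes and became, per transcript length in the authors' TPM, the most abundant of the 7 genes after IL-13 at day 0. Its level in the untreated day 0 libraries was 1.79, 2.71, 1.96 and 1.34 CPM, and in the IL-13 libraries 295, 254, 266 and 273 CPM. Every IL-13 library was far above every untreated library, and counts per library went from between 25 and 44 to between 4007 and 4921. The fitted log2 fold change was 7.12 (SE 0.11), a 139-fold difference. Serpinb1a inhibits neutrophil elastase, proteinase 3 and cathepsin G. At day 6 the gene was near the limit of counting in both groups, with 4, 2, 0 and 2 reads in the untreated and 2, 1, 2 and 2 reads in the IL-13 libraries, so a difference between the groups was not detectable at this depth. The ratio of the IL-13 to the untreated sum at day 6 was 0.880, with a 95% counting interval from 0.272 to 2.78.

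Serpinb6a, an inhibitor of cathepsin G and trypsin-like proteases, was the most abundant member in untreated cells on both days. At day 0 it was at 217, 243, 244 and 201 CPM in the untreated and 436, 429, 459 and 400 CPM in the IL-13 libraries. The lowest IL-13 library was well above the highest untreated library, and the log2 fold change was 0.92 (SE 0.065), or 1.89-fold. Exons of Serpinb6a overlap exons of 1110046J04Rik, Nqo2 and Ripk1 on the opposite strand over 29.3% of their bases. Whether the counting used strand is not given in the sources used here, so part of its reads may not be separable from theirs. Its paralogue Serpinb6b, an inhibitor of granzyme A, was much rarer. It was at 0.922, 1.66, 1.5 and 1.87 CPM in the untreated and at 5.81, 6.46, 5.34 and 6.26 CPM in the IL-13 libraries. The groups stood apart here too, with a log2 fold change of 1.99 (SE 0.18).

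The Serpinb9 genes are relatives of the granzyme B inhibitor Serpinb9, and the 3 members among them were all higher after IL-13 at day 0. Serpinb9 itself was at 11, 13.8, 13.4 and 11.2 CPM in the untreated and at 37.0, 36.9, 36.1 and 32.1 CPM in the IL-13 libraries. The 2 sets were tight and separate, with a log2 fold change of 1.51 (SE 0.083). Serpinb9b, an inhibitor of granzyme M, went from 1.13, 1.17, 1.27 and 0.964 CPM to 8.33, 9.12, 7.54 and 9.14 CPM. Its log2 fold change was 2.89 (SE 0.14), or 7.43-fold, which is larger than that of the adjacent Serpinb9.

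Serpinb9g was the rarest member at day 0. It was at 0, 0.246, 0.230 and 0.107 CPM in the untreated and at 1.80, 1.96, 1.72 and 2.56 CPM in the IL-13 libraries at day 0. The untreated values rest on 10 reads over 4 libraries, so the log2 fold change of 3.76 has a wide SE of 0.40. Serpinb9g passed the filter on low counts only through its IL-13 libraries at day 0, with 29 to 40 reads each against 0 to 4. The ratio of the summed levels was 14.4, with a 95% counting interval from 7.57 to 30.7. Of the 50-base stretches of its transcript, 54.8% also occur in other genes, 46.0% in Gm11397 (named Serpinb9h in RefSeq) alone, so the split of its reads between relatives is uncertain. Gm11397 had 2 reads in the untreated day 0 libraries and none in the other 3 groups. The other 6 members shared between 0.165% and 2.92% of their stretches with other genes read on the same strand. Read on the opposite strand, 24.4% of the stretches of Serpinb6a and 4.90% of those of Serpinb9b, the latter with Gm36099, which had no read, also occurred in other genes.

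Serpinb8, an inhibitor of the proprotein convertase furin and the member outside the chromosome 13 cluster, was the 1 member that was lower after IL-13. It was at 30.6, 32.2, 32.1 and 32.2 CPM in the untreated and at 25.6, 22.6, 26.5 and 29.1 CPM in the IL-13 libraries at day 0. The groups did not overlap, but the gap between them was small beside those of the other members, with a log2 fold change of -0.31 (SE 0.075). When libraries were scaled by their total count, the log2 fold changes of Serpinb8 and Serpinb6a at day 0 were -0.43 and 0.80.

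**Figure D1:**
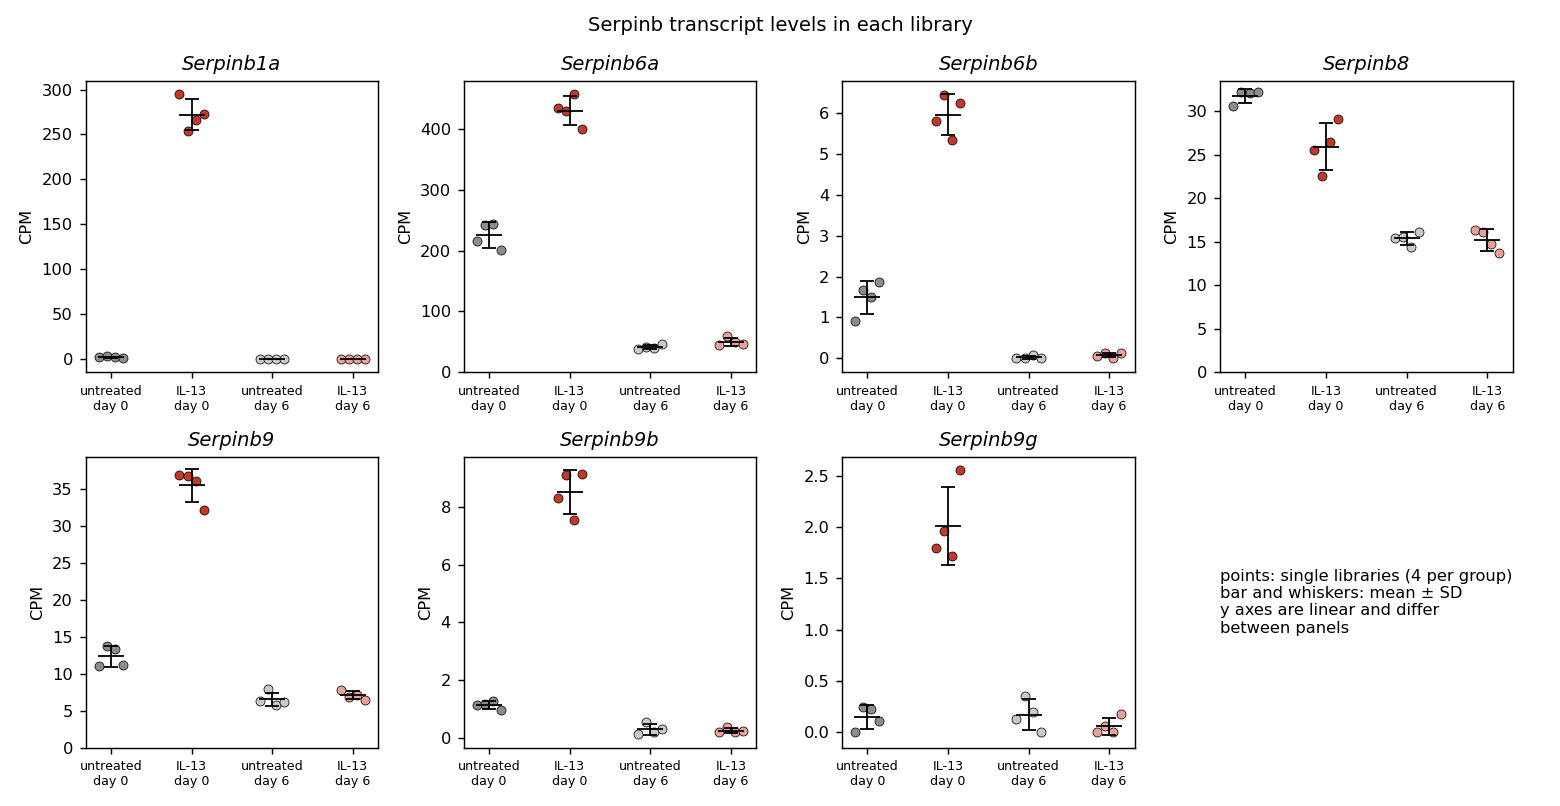
Level of each Serpinb gene in CPM (linear y axis, its own range in each panel) in the 16 libraries, by group on the x axis. Points are single libraries, and the bar with whiskers is the mean ± SD of 4. In every panel but that of Serpinb8 the 4 IL-13 libraries at day 0 stand above all others; Serpinb8 runs from 22.6 to 29.1 CPM there against 30.6 to 32.2 CPM in untreated cells.

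Of the 7 members, 6 were called higher and 1 lower after IL-13 at day 0 at an adjusted p under 0.05 in edgeR's quasi-likelihood test. Over all 12274 genes tested there, 23.7% were called higher and 24.2% lower, and in 20.9% all IL-13 libraries were above and in 19.5% all were below every untreated library. Since these same values chose the members, nothing is read from their count. With total-count scaling the median over all genes tested went from -0.01 to -0.13 on the log2 scale, and the calls went from 2912 higher and 2969 lower to 1682 higher and 4523 lower. Under it the members still gave 6 higher and 1 lower. Without untreated libraries 1 and 4, the ones with the most nuclear-retained RNA at day 0, the members gave 6 higher and 1 lower as well, and Serpinb9g had a log2 fold change of 3.03.

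Per unit of transcript length, in the authors' deposited TPM values (reads scaled to transcript length and library size), the 7 genes summed to 198 ± 8.08 TPM (SD, n = 4) in untreated and 699 ± 42.3 TPM (SD, n = 4) in IL-13 libraries at day 0. Serpinb6a made up 77.5% of the untreated sum. After IL-13, Serpinb1a made up 53.7% and Serpinb6a 36.3%. In untreated cells at day 0 the order by TPM was Serpinb6a (154), Serpinb8 (24.5), Serpinb9 (13), Serpinb1a (3.10), Serpinb6b (2.43), Serpinb9b (1.24) and Serpinb9g (0.272). In that order Serpinb1a and Serpinb6b overlapped between libraries, and no other neighbours did. After IL-13 the order was Serpinb1a (376), Serpinb6a (253), Serpinb9 (32.3), Serpinb8 (17.3), Serpinb6b (8.41), Serpinb9b (8.12) and Serpinb9g (3.34). There Serpinb6b and Serpinb9b overlapped, while Serpinb9 and Serpinb8 had changed places without overlap.

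**Figure D2:**
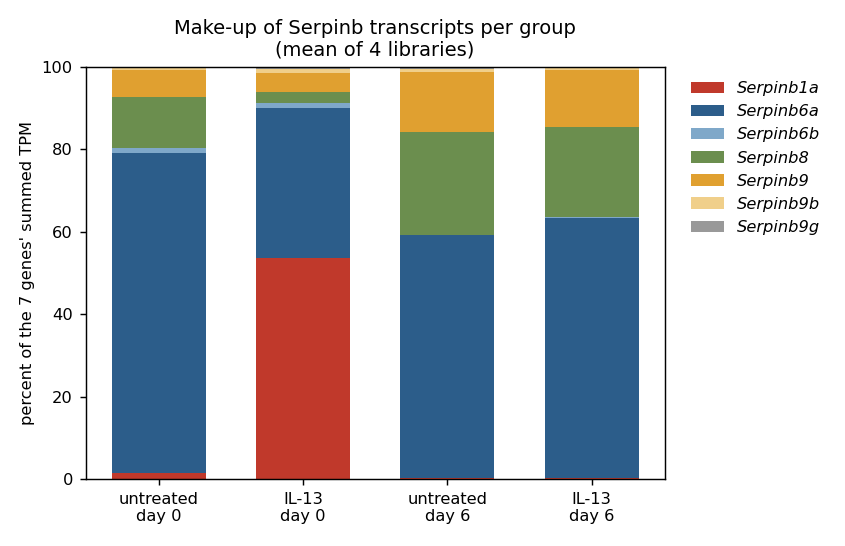
Share of each gene in the summed TPM of the 7 genes (y axis, percent), as the mean of 4 libraries in each group (x axis). Serpinb1a takes 1.56% of the untreated and 53.7% of the IL-13 bar at day 0, and at day 6 both bars are made almost wholly of Serpinb6a, Serpinb8 and Serpinb9.

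At day 6 the members were low in both groups, and IL-13 and untreated libraries overlapped for all 7. Over the 12352 genes tested, all IL-13 libraries were above every untreated library in 7.21% and below in 8.28%. Serpinb6a was at 37.5, 41.4, 39.7 and 45.4 CPM in the untreated and at 45.3, 59.0, 50.1 and 45.8 CPM in the IL-13 libraries, a log2 fold change of 0.30 (SE 0.094). Untreated library 4 was just above IL-13 library 1, so the groups touched. Serpinb8 was at 15.5, 15.6, 14.4 and 16.1 CPM against 16.4, 16.1, 14.8 and 13.6 CPM, and its log2 fold change of 0.00 had an SE of 0.085. Serpinb9 was at 6.31, 7.90, 5.81 and 6.15 CPM against 7.85, 6.89, 7.16 and 6.53 CPM, with a log2 fold change of 0.13 (SE 0.12).

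The other 4 members were too low at day 6 to be tested within that day. Serpinb9b had 2, 9, 3 and 5 reads in the untreated and 3, 6, 3 and 4 reads in the IL-13 libraries. Serpinb9g had 2, 6, 3 and 0 reads against 0, 1, 0 and 3. Serpinb6b had 1 read in the 4 untreated and 5 reads in the 4 IL-13 libraries, a ratio of 5.03 with a counting interval from 0.563 to 238. These intervals, like the others here, cover counting error only, and a difference of moderate size would not be detectable at this depth.

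None of the 3 members tested within day 6 was called, against 6.55% of 12352 genes tested (2.21% higher and 4.34% lower). That background of 809 genes depended on single libraries: it was 102, 60 and 523 without untreated library 1, 2 or 3, and 2328, 62, 205 and 320 without IL-13 library 1, 2, 3 or 4. Without untreated libraries 1 and 2, which held the most nuclear-retained RNA, it was 2. Serpinb6a was called higher without IL-13 library 1, without the filter on low counts, in a fit of all 16 libraries and with replicate number as a block. Total-count scaling changed the split from 273 higher and 536 lower to 53 higher and 1032 lower, with none of the 3 members called.

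Summed over the 7 genes, the level at day 6 was 41.1 ± 2.54 TPM (SD, n = 4) in untreated and 42.8 ± 4.95 TPM (SD, n = 4) in IL-13 libraries. Serpinb6a made up 58.8% and 63.0% of these sums, Serpinb8 24.9% and 21.7%, and Serpinb9 14.5% and 14%. The first 3 places, in that order and without overlap between neighbours, were the same in both groups. Below them the 4 rare members were between 0.0229 and 0.284 TPM, and most neighbours in the order overlapped.

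Between day 0 and day 6 of differentiation the members lay lower in untreated cells, with the exception of Serpinb9g. Serpinb6a fell from 226 ± 20.9 to 41.0 ± 3.37 CPM (SD, n = 4), a log2 fold change of -2.46 (SE 0.087). Among the members called lower, Serpinb8 and Serpinb9 had the smallest differences, with log2 fold changes of -1.05 (SE 0.079) and -0.91 (SE 0.11). Serpinb1a had a log2 fold change of -3.88 (SE 0.36) and Serpinb9b of -1.92 (SE 0.30). Serpinb6b went from 106 reads to 1 read, a ratio of 95.6 between day 0 and day 6 with a counting interval from 16.8 to 3811. Serpinb9g, at 10 and 11 reads, had a log2 fold change of 0.27 (SE 0.77). In all, 6 of 7 were called lower and none higher, against 39.0% lower and 41.5% higher of 13157 genes tested. In these bulk libraries, fewer cells that express a gene and less RNA per cell cannot be told apart.

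In the cells pre-treated with IL-13 the day 6 values started from higher day 0 levels, and all 7 members were called lower, against 40.3% lower and 40.6% higher of the genes tested. Serpinb1a dropped from 17679 to 7 reads over the 4 libraries, a log2 fold change of -11.19 (SE 0.18). Serpinb9b had a log2 fold change of -5.06 (SE 0.24), Serpinb9g of -4.86 (SE 0.59) and Serpinb6b of -6.13 (SE 0.35). Serpinb6a, Serpinb9 and Serpinb8 had log2 fold changes of -3.11 (SE 0.088), -2.32 (SE 0.10) and -0.77 (SE 0.080). Without IL-13 library 4 at day 6, which held 3 of the 4 reads of Serpinb9g in that group, its value was -6.12.

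**Figure D3:**
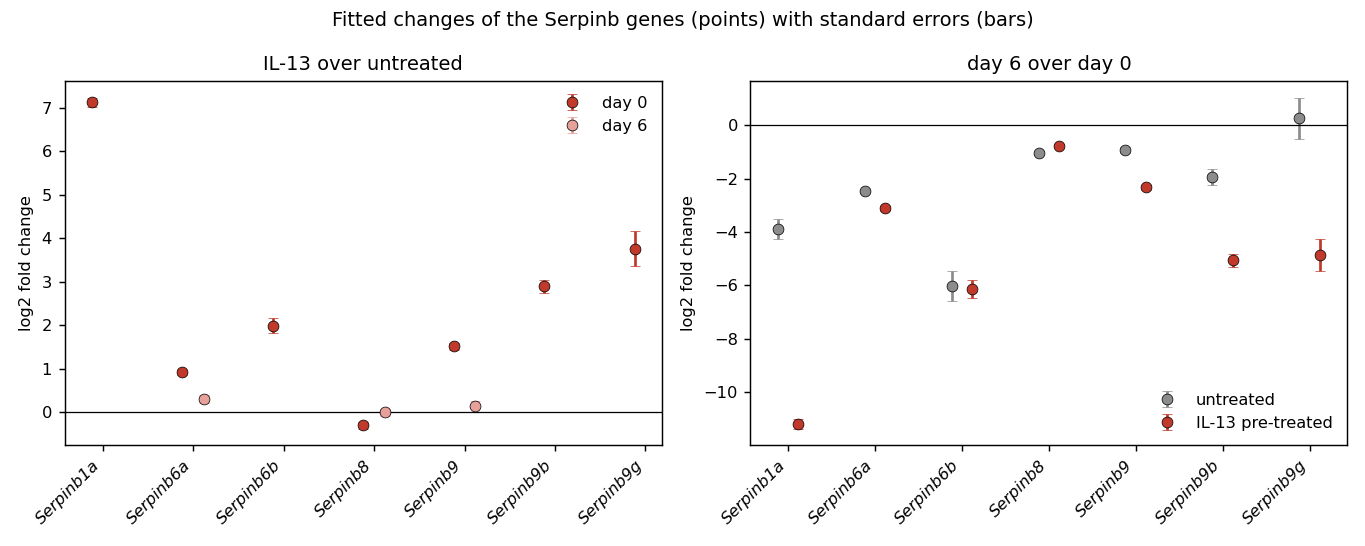
Fitted log2 fold changes (y axis) of the 7 genes (x axis) for IL-13 over untreated on each day (left) and for day 6 over day 0 in untreated and pre-treated cells (right), with standard errors as bars. Serpinb1a has the largest values, 7.12 at day 0 on the left and -11.19 on the right; members too low to test at day 6 have no point there.

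The difference between the IL-13 effects of the 2 days was fitted over all 16 libraries. It was called lower at day 6 for 5 members, against 4.95% lower and 3.12% higher of 13157 genes tested. The log2 differences were -7.31 (SE 0.96) for Serpinb1a, -5.12 (SE 1.11) for Serpinb9g, -3.14 (SE 0.47) for Serpinb9b, -1.41 (SE 0.15) for Serpinb9 and -0.65 (SE 0.12) for Serpinb6a. At day 6, Serpinb1a had 8 untreated and 7 IL-13 reads in all, Serpinb9g 11 and 4, and Serpinb9b 19 and 16. The day 6 effects of these genes are therefore near the limit of counting, and the sizes of their differences are uncertain. Serpinb9g was no longer called without untreated day 6 library 2, which left 4 members. For Serpinb8 the difference was 0.28 (SE 0.11), called higher without IL-13 day 0 library 4, where it was 0.39. For Serpinb6b it was -0.11 (SE 0.52), and it turned to 1.53 without untreated day 6 library 3, which held the 1 read of that group. Over all genes the split of 410 higher and 651 lower became 509 and 505 with the relative log expression scaling and 516 and 498 with total-count scaling, and 5 members were called lower under each.

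Across the 16 libraries the members' log2 CPM values moved together to different degrees, which is a description of libraries that share groups and days. The highest Pearson correlation between 2 members was 0.99 (n = 16), for Serpinb1a and Serpinb9, and the lowest was 0.39 (n = 16), for Serpinb8 and Serpinb9g. The genes most like Serpinb1a were Diras2, Tmem26 and Serpinb9, and those most like Serpinb9 were Diras2, Serpinb1a and Enpp1. Serpinb9b was closest to Enpp1, Serpinb9 and Myocd. Diras2 was at 0.720 and 16.8 CPM in untreated and IL-13 libraries at day 0 and at 0 and 0.0155 CPM at day 6. Serpinb6a was closest to Copa, Cd63 and Copg1, and 1500 genes reached a correlation of 0.95 with it, against 91 for Serpinb1a and 1 for Serpinb9g. Serpinb6b was closest to S1pr3, Ntn1 and Plekha2, Serpinb8 to Hgf, Nrep and Ckap2, and Serpinb9g to Gm49257, Susd4 and Prl2c3.

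Other clade B serpins were rare. Of 21 listed, 20 were in the tables under the listed symbol and 2 passed the filter at day 0, and both were higher after IL-13. Serpinb1b, a close relative of Serpinb1a, was at 1.03 ± 0.198 and 5.04 ± 0.663 CPM (SD, n = 4), a log2 fold change of 2.27 (SE 0.18, edgeR adjusted p = 1.17e-07). Serpinb9c was at 0.165 ± 0.0705 and 1.01 ± 0.265 CPM (SD, n = 4), a log2 fold change of 2.54 (SE 0.38). It passed the filter only through its IL-13 libraries, with 10 to 21 reads each against 2 to 5 in the untreated libraries. A higher value was thus favoured in advance, and no p is given for it. At day 6 Serpinb1b had 3 and 6 reads and Serpinb9c 13 and 9 reads in the untreated and IL-13 libraries. The IL-13 effect on Serpinb9c differed between the days by -3.05 (SE 0.72), also given without p, while that on Serpinb1b differed by -1.38 (SE 0.92, edgeR adjusted p = 0.551). From day 0 to day 6 in untreated cells, Serpinb1b fell (log2 fold change -4.27, SE 0.42). It passed the filter only through its day 0 libraries, so a fall was favoured in advance and no p is given. Serpinb9e rose between these days in untreated cells, from 12 to 28 reads (log2 fold change 1.33, SE 0.58). It failed the filter within day 0 and passed it within day 6, so a rise was favoured in advance and no p is given. Its call was lost in 11 of 21 alternative settings, among them DESeq2 and total-count scaling. They also included the removal of untreated library 1, 2 or 4 at day 0 or 2, 3 or 4 at day 6, or of IL-13 library 2 or 4 at day 0.

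Genes near the chromosome 13 members, up to 500 kb outside the outermost ones, numbered 35, of which 11 were tested at day 0 and 8 were higher after IL-13. The call rate over all genes tested was 23.7% higher and 24.2% lower. Beside Serpinb1b and Serpinb9c, the predicted gene Gm6093 between Serpinb9g and Serpinb6a had the largest difference, with 12 reads in the untreated and 356 in the IL-13 libraries at day 0 and none at day 6. Its log2 fold change was 4.96 (SE 0.26). Gm6093 and Serpinb9c passed the filter only through their IL-13 libraries, so their higher calls among the 8 were favoured in advance. The other 5 lay next to or beyond Serpinb6a and differed little: 1110046J04Rik by 0.47 (SE 0.11), Nqo2, a quinone reductase, by 0.39 (SE 0.080), Ripk1, a kinase of cell death signalling, by 0.22 (SE 0.059), Tubb2a, a beta tubulin, by 0.18 (SE 0.070) and Psmg4, a proteasome assembly chaperone, by 0.55 (SE 0.17) on the log2 scale. Their edgeR adjusted p-values were 0.00299, 0.00122, 0.00660, 0.0492 and 0.0133. Wrnip1, on the far side of Serpinb1a, was not called, with a log2 fold change of -0.09 (SE 0.066). Total-count scaling gave 6 higher and 2 lower neighbours (Wrnip1 and Tubb2b), without Ripk1 and Tubb2a among the higher. Leaving out untreated libraries 1 and 4 also ended the calls of Ripk1, Tubb2a and Psmg4. That of Tubb2a was lost in 10 of 15 alternative settings, among them the removal of untreated library 1, 2 or 4 or of IL-13 library 2, 3 or 4. The 3 neighbours that share exons with Serpinb6a on the opposite strand carry the same limit of strand as that gene. At day 6 none of 10 tested neighbours was called, and on chromosome 1 none of the 12 neighbours of Serpinb8 passed the filter.

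**Figure D4:**
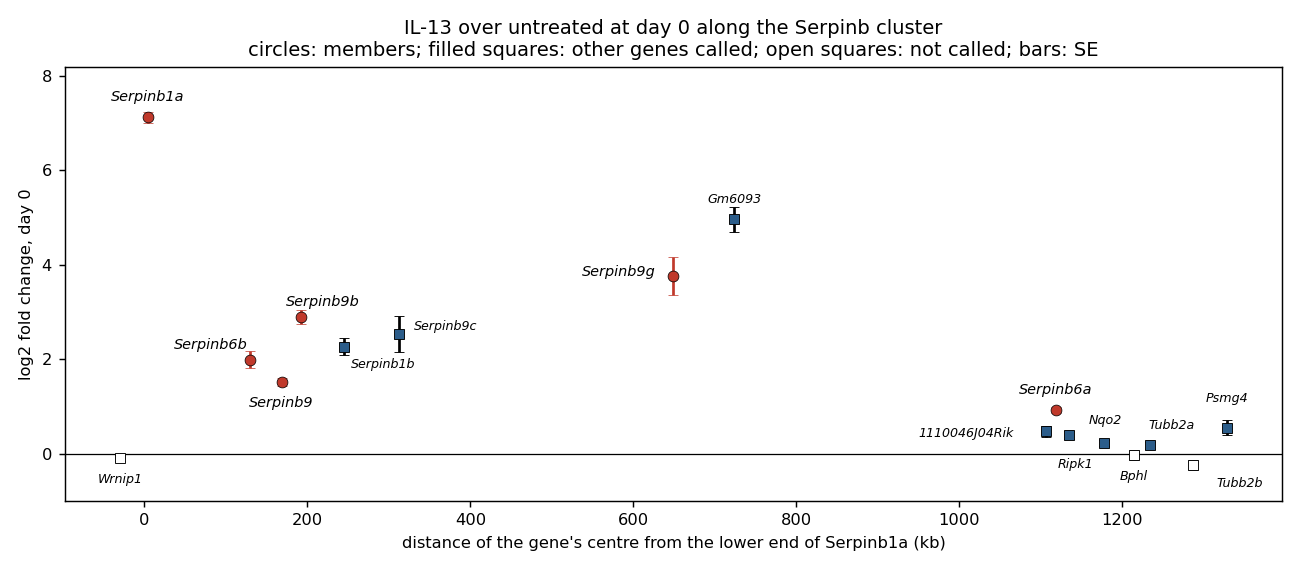
Log2 fold change of IL-13 over untreated at day 0 (y axis, bars are SE) against distance from the lower end of Serpinb1a in kb (x axis) for the tested genes of the chromosome 13 region. Red circles are members, filled squares other genes called and open squares genes not called. Values do not change steadily along the region. Wrnip1, to the left of Serpinb1a (7.12), is at -0.09, Serpinb9 at 1.51 and Gm6093 at 4.96. From Serpinb6a to the right, values lie between -0.25 and 0.92.

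Leukocyte granule proteases, among them known targets of these serpins, were barely counted. None of 21 listed genes (elastase, proteinase 3, cathepsin G, granzymes, chymases, tryptases and perforin, the pore-forming partner of granzymes) passed the filter in any comparison. Their summed level was 1.17 and 1.18 CPM in untreated and IL-13 libraries at day 0 and 1.11 and 1.29 CPM at day 6. Elastase (Elane), cathepsin G (Ctsg), granzyme A (Gzma) and granzyme B (Gzmb) had no read in any day 0 library. Proteinase 3 (Prtn3) and granzyme M (Gzmm) did have reads in both day 0 groups. Of the 21 genes, 9 had a read in the untreated and 10 in the IL-13 libraries at day 0. Furin, the convertase that Serpinb8 inhibits, was at 68.0 ± 7.08 and 76.8 ± 3.50 CPM (SD, n = 4) at day 0, a log2 fold change of 0.16 (SE 0.069, edgeR adjusted p = 0.0655) that was called in 4 of 15 alternative settings, among them without untreated library 3 (0.21) or 4 (0.21). Of 6 convertases tested, 1 was called higher and 2 lower, among the latter Pcsk6 by -0.40 (SE 0.060, edgeR adjusted p = 0.000103), against 23.7% higher and 24.2% lower of all genes tested. No convertase was called higher with DESeq2, with total-count scaling or in the fit of all 16 libraries.

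Among other proteases, cathepsins and pericellular proteases changed in both directions at day 0, while the caspases called were all lower. Over all genes tested there, 23.7% were called higher and 24.2% lower. Among 10 cathepsins tested, 4 rose (Ctso, Ctsh, Ctsd and Ctsz) and 1 fell (Lgmn), with Ctso at 1.23 (SE 0.085), Ctsh at 0.42 (SE 0.057), Lgmn at -0.27 (SE 0.050) and Ctsd at 0.27 (SE 0.060) on the log2 scale. Total-count scaling turned this to 3 higher and 5 lower. Among 9 caspases tested, the proteases of apoptosis and inflammation, 4 fell and none rose, among them Casp12 by -0.57 (SE 0.079), Casp2 by -0.38 (SE 0.067) and Casp9 by -0.26 (SE 0.067). Casp9 was not called without untreated libraries 1 and 4, and total-count scaling gave 7 lower and none higher. Among 9 plasminogen activators and pericellular proteases, 4 rose (Plau, F2r, Htra2 and Htra3) and 3 fell (Prss23, Fap and Htra1), with Plau, the urokinase, at 1.14 (SE 0.057), Prss23 at -0.68 (SE 0.052) and Fap at -1.17 (SE 0.23), and total-count scaling left 2 higher and 3 lower. The medians of these 3 lists were 0.00, -0.32 and 0.09, against -0.01 for all genes tested.

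Serpins outside clade B, most of them secreted, gave 7 higher and 1 lower of 11 tested at day 0, against 23.7% higher and 24.2% lower of all genes tested, with a median log2 fold change of 0.43. Serpina3g went from 1.98 ± 0.453 to 242 ± 14.9 CPM (SD, n = 4), a log2 fold change of 6.93 (SE 0.10, edgeR adjusted p = 3.81e-16), close in size to that of Serpinb1a. Serpina3n and Serpina3c rose by 6.72 (SE 0.21) and 6.03 (SE 0.16), though the Serpina3 genes are near copies and the split of reads among them is uncertain. At day 6 none of 7 tested was called by edgeR within that day, while 2 of 7 were called higher by DESeq2, 2 of 17 without the filter on low counts and 2 of 12 in the fit of all 16 libraries. Of 9 tested response genes of IL-4 and IL-13, 6 rose and 1, the receptor chain Il13ra1, fell at day 0, with a median of 1.40. They included the signalling inhibitor Cish at 2.78 (SE 0.074), the eosinophil chemokine Ccl11 at 7.54 (SE 0.22), the transglutaminase Tgm2 at 1.70 (SE 0.061) and the receptor chain Il4ra at 1.40 (SE 0.057) on the log2 scale. None of the 9 was called at day 6 by edgeR within that day, while DESeq2, total-count scaling and the fit of all 16 libraries each called 1 lower.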

How the data were processed

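The study sequenced messenger RNA of 16 libraries with a stranded kit. Per the file headers, the authors deposited for each library a whole-number read count per gene and a TPM value (transcripts scaled to length and library size), in 1 table for each day. Per the submitters' processing notes the build was mm10; the labels and headers name no aligner, counter or strand setting. The members and gene lists were chosen with earlier results of these data known. Genes named from a list are up to 4 with the smallest p among those called. Named too are the members, the 3 genes most like each member, and the neighbours called at day 0. Furin, Gm11397, Serpinb9e and Wrnip1 were added after their values were seen. A few genes covered by the rule are not reported here.

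Counts were scaled by trimmed mean of M values, filtered with filterByExpr (minimum count 10, minimum total 15) and tested with edgeR 4.0.16 by quasi-likelihood, with Benjamini-Hochberg adjustment over all genes tested and a threshold of 0.05; scripts were tested on simulated data. IL-13 effects were fitted within a day, and day effects and their difference over 16 libraries. CPM used the scaled library sizes. Likeness used log2 CPM with a prior count of 2. Levels of different genes were compared in the authors' TPM. These TPM values come from 2 tables and were compared within a day. Ratios of sums have exact 95% intervals that cover counting error only. Alternatives were DESeq2 1.42.0, other scalings, no filter, a replicate block, a common fit and left-out libraries.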

Additional observations from a re-analysis of the deposited data

Results flagged for a closer look

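Single libraries stood apart from the other 3 of their group, by the ratio of the gap to the range, in 6 cases. Chance alone meets this check in about 1 of 20 groups. It was run on each member and named clade B gene in every group and on other named genes at day 0. With so many groups checked, several cases are met by chance, and nothing is read from their number. Serpinb6b at day 6 had 0.0660 CPM in untreated library 3 and 0 in the other 3, a difference of 1 read. Serpinb8 was at 30.6 CPM in untreated day 0 library 1 and between 32.1 and 32.2 CPM in the others. Serpinb1b was at 0 CPM in 1 untreated day 6 library, where the others had 1 read each. Psmg4 was at 2.30 CPM in 1 IL-13 day 0 library, against 2.94 to 3.03 CPM in the others. Cish was at 11.7 CPM in 1 untreated day 0 library, against 9.84 to 9.98 CPM. Tgm2 was at 99.6 CPM in 1 IL-13 day 0 library, against about 105 CPM.

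The IL-13 effect differed between the days by the interaction term of the edgeR fit. The log2 differences (day 6 minus day 0) were -7.31 for Serpinb1a, -5.12 for Serpinb9g, -3.14 for Serpinb9b, -1.41 for Serpinb9 and -0.65 for Serpinb6a, which describe genes chosen on these values. The day 6 effects of Serpinb1a, Serpinb9g and Serpinb9b rest on few reads, near the limit of counting. For Serpinb9c, which is not among the 7, the difference was -3.05, and the gene passed the filter only through its IL-13 libraries at day 0.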

How the results depend on the processing

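For IL-13 at day 0, the count of called genes was 5881 and fell to 3485 without untreated libraries 1 and 4; leaving out 1 library gave 4823 to 6593. For IL-13 at day 6 the count was 809, against 1428 with DESeq2, 2812 with the replicate block, 1405 with all 16 libraries in one fit and 2 without untreated libraries 1 and 2; leaving out 1 library gave 60 to 2328. The difference between the days gave 1061 genes, and 1608 with the replicate block. The cause of these shifts was not tested. Its split of 410 higher and 651 lower became 619 and 593 with DESeq2 and 522 and 446 without the filter. The day effects stayed within 1.5 times of 10590 and 10637 genes in every alternative run.

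All 7 members kept their day 0 direction in all 15 alternatives, which are refits of the same values that chose them and so are a description only. Their log2 fold changes ranged from 6.86 to 7.30 for Serpinb1a, 0.80 to 0.96 for Serpinb6a, 1.81 to 2.14 for Serpinb6b, -0.43 to -0.24 for Serpinb8, 1.38 to 1.57 for Serpinb9, 2.78 to 2.95 for Serpinb9b and 3.03 to 4.11 for Serpinb9g.

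Replicate numbers are shared between groups, but the labels do not say what they mark. For that reason the samples were not treated as paired. Same-numbered libraries had correlations of their deviations from -0.083 to 0.21, which do not decide whether they are paired. Library 3 held the lowest sum of nuclear-retained RNAs in each group. It was at 290 and 180 CPM in untreated and IL-13 cells at day 0, and at 688 and 262 CPM at day 6. That 11 of 16 correlated best with their own number is a hint from the data, not from the design, that numbers may mark something shared. With the replicate block Serpinb6a was called higher at day 6, as were 4 of 7 serpins outside clade B, and of 9 response genes of IL-4 and IL-13 2 were called higher and 1 lower. Values under 3 reads per group are limited by depth.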
